A study of Sus scrofa with 12 samples.

Results

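The 10 genes described here encode proteins of the acrosome, the secretory cap over the sperm nucleus, and of the fusion of sperm with the egg. They were taken by name (ACR, ACRBP, ACRV1, SPACA1, SPACA3, ZPBP, ZPBP2, IZUMO1, IZUMO3 and SPAM1), and all 10 were found among the 30640 gene rows. RNA was sequenced from 5 testis and 5 epididymis libraries of untreated adult boars of BMI, the inbred Banna mini-pig, a Chinese line of small pigs. The animal numbers in the file headers are the same for both tissues, so each boar gave 1 library of each. The extraction protocol in the labels speaks of mixed samples, which the headers of these 10 libraries do not, so p-values measure the spread between libraries, whatever went into each. By the headers the boars of replicates 1 to 5 were 12, 12, 11, 17 and 11 months old, while 12 months is the age in the labels.

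The acrosome forms from Golgi vesicles in round spermatids and is filled with enzymes and matrix proteins that are released when sperm meet the coat of the egg. Acrosin, stored as the inactive proacrosin, digests proteins of that coat, and the hyaluronidase SPAM1 loosens the cells around the egg. IZUMO1 becomes exposed on the sperm surface after release and binds its receptor on the egg membrane, the step that precedes fusion. In the epididymis, which makes no sperm, transcripts of these genes can come from sperm or shed germ cells in the lumen or from the cells of the duct.

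Library totals ran from 18715154 to 30211957 reads in testis and from 17980578 to 21937263 reads in epididymis. A gene with no read could still have up to 3, which is 0.0993 to 0.167 CPM (reads per 1000000 reads of the library) in 1 library. Summed haploid germ cell and epididymal epithelial markers matched the labelled tissues, and meiotic, Sertoli and Leydig cell markers also summed higher in testis. Spermatogonial markers did not separate the tissues, as 8 rows summed to 96.0 to 113 CPM in testis and 50.5 to 117 CPM in epididymis. Of 16 haploid germ cell markers such as the protamine PRM1, 15 had rows and summed to 18578 to 23823 CPM in testis and 127 to 715 CPM in epididymis, with none at 0 in either tissue. Of 10 epididymal epithelial markers, 9 had rows and summed to 70.1 to 139.8 CPM in testis and 19319 to 31358 CPM in epididymis. CRISP1 was at 0 in all testis libraries, and PTGDS was low in epididymis too, at 0.222 to 1.73 CPM. Testis replicate 4 stood apart among the testis libraries, with 71.3 CPM of small structural RNAs such as the signal recognition particle RNA. The other 4 testis libraries had 15044 to 16186 CPM of them, and the epididymis libraries 72.9 to 134 CPM. Histone genes had 76.8 CPM in testis replicate 4, 2147 to 3068 CPM in the other 4 and 61.6 to 298 CPM in epididymis. In this content replicate 4 was thus like the epididymis libraries, and for the other 4 tissue and RNA content cannot be told apart. Testis replicate 4 is also the library of the boar aged 17 months in the headers. Among the testis libraries, age, animal and RNA content therefore cannot be told apart for it. In epididymis replicate 3, 14 of the 15 haploid markers were above every other epididymis library, where 31.9% of the 17225 genes tested were. This library also stood apart by a chi-square of count differences per gene, 340 to 437 against the other epididymis libraries. Among those it was 72.5 to 228. Of the 9 epithelial markers, 5 were lowest in replicate 3 and 2 highest. Most of its epithelial sum came from NPC2 (12499 CPM) and DEFB128 (11667 CPM).

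All 10 genes were far more abundant in testis, and in each of them every testis library lay above every epididymis library. Over all 17225 genes tested, 32.1% had this order of libraries. By edgeR's quasi-likelihood test (adjusted p under 0.05), which called all 10 genes higher in testis, 36.6% of all genes tested were higher in testis, 37.8% higher in epididymis and 74.4% called in either direction. Of the 10 genes, 7 passed the filter on low counts through their testis libraries alone, so they could be tested only because they were high there. In a bulk tissue, fewer cells of a type and less RNA per cell cannot be told apart. The exact two-sided permutation test of 5 against 5 libraries gave p = 0.00794 for each gene, which is the smallest it can give. When tissues were swapped inside each boar instead, the exact permutation p was 0.0625, again the smallest possible, with testis higher in 5 of 5 boars.

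**Figure D1:**
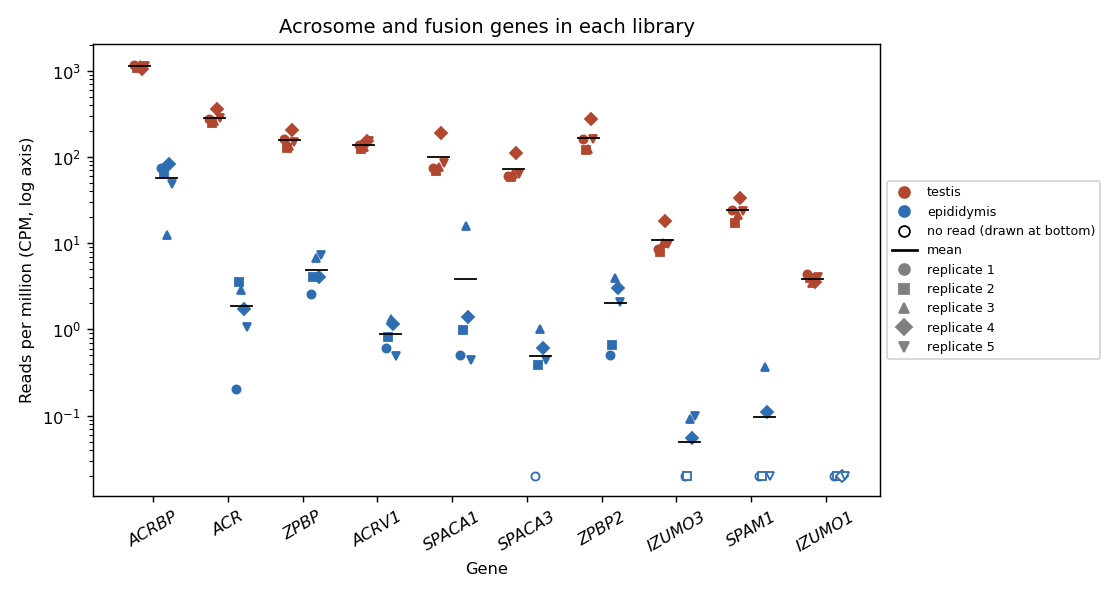
CPM (log axis) of the 10 genes in each testis (red) and epididymis (blue) library, with the mean as a black line. Marker shapes give the replicate number, and open markers at the bottom are libraries with no read. ACRBP is highest in both tissues, and IZUMO1 has no read in any epididymis library.

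The protease and its partner were the most abundant pair in testis, also per unit of gene length. ACRBP, the proacrosin-binding protein that holds proacrosin in the acrosome (chromosome 5, 64036810 to 64047846, Sscrofa11.1), had 1179, 1075, 1151, 1055 and 1147 CPM in testis replicates 1 to 5. In epididymis replicates 1 to 5 it had 75.4, 65.4, 12.5, 83.2 and 48.3 CPM. Its testis libraries differed by at most 1.12 times, the narrowest range of the 10 genes, and its epididymis libraries were the only ones of the 10 with at least 274 reads each. The log2 fold change was 4.32 ± 0.44 (approximate SE, testis over epididymis, edgeR adjusted p = 3.6e-06), the smallest of the 10. No other gene of the RefSeq table overlaps ACRBP, but ING4 lies 139 bases away.

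ACR, acrosin itself (chromosome 5, 30127 to 36005), had 277, 246, 261, 358 and 284 CPM in testis and 0.204, 3.56, 2.87, 1.72 and 1.08 CPM in epididymis. The tissues were 151-fold apart by their means (log2 fold change 7.25 ± 0.60, edgeR adjusted p = 7.0e-07). ACR overlaps a long non-coding RNA gene, LOC110260601 (30767 to 34750), and since no strand setting is given in the sources used here, reads of both may have been counted together. Testis replicate 4 was the highest library for ACR and the lowest for ACRBP. The ratio of ACR to ACRBP reads was 0.227 to 0.248 in the other testis libraries and 0.339 in replicate 4.

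By CPM the matrix and zona-binding proteins followed, though per unit of gene length ZPBP2 stood only at place 7. ZPBP, a zona pellucida binding protein of the acrosome (chromosome 9, 136105129 to 136186744), had 163, 128, 134, 203 and 149 CPM in testis and 2.60, 4.11, 6.66, 4.0 and 7.20 CPM in epididymis (log2 fold change 5.0 ± 0.31, edgeR adjusted p = 8.6e-08). Its relative ZPBP2 (chromosome 12, 22454974 to 22462918) had 160, 121, 122, 274 and 163 CPM in testis and 0.509, 0.657, 3.97, 3.06 and 2.06 CPM in epididymis (log2 fold change 6.38 ± 0.56, edgeR adjusted p = 1.2e-06). Testis means were 31.7 times the epididymis means for ZPBP and 81.9 times for ZPBP2. ACRV1, the acrosomal vesicle protein also called SP-10 (chromosome 9, 52803378 to 52809975), had 138, 123, 131, 151 and 151 CPM in testis and 0.611, 0.821, 1.32, 1.17 and 0.490 CPM in epididymis. It had the narrowest error of fold change among the 9 genes with reads in both tissues (log2 7.32 ± 0.28, edgeR adjusted p = 9.6e-09).

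SPACA1 and SPACA3, a membrane protein of the acrosome needed for its formation in mice and a lysozyme-like acrosomal protein, were both high in testis replicate 4. SPACA1 (chromosome 1, 56378300 to 56395497) had 74.5, 68.6, 76.7, 189 and 85.5 CPM in testis and 0.509, 0.986, 15.9, 1.39 and 0.441 CPM in epididymis. Its value in epididymis replicate 3 was 349 of its 411 epididymal reads. The log2 fold change was 4.72 ± 0.97 with all libraries (edgeR adjusted p = 0.000877) and 6.89 without epididymis replicate 3 (edgeR adjusted p = 9.1e-08). SPACA3 (chromosome 12, 42046804 to 42050684) had 59.7, 58.3, 63.5, 112 and 64.2 CPM in testis, and 0, 0.383, 1.00, 0.612 and 0.441 CPM in epididymis (log2 fold change 7.20 ± 0.59, edgeR adjusted p = 6.7e-07).

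SPAM1 and the IZUMO genes were the least abundant of the 10 in testis, also per unit of gene length. SPAM1, also known as PH-20 (chromosome 18, 23589947 to 23598739), had 24.0, 17.2, 21.4, 33.3 and 23.7 CPM in testis. In epididymis it had no read in replicates 1, 2 and 5, 8 reads in replicate 3 and 2 in replicate 4. Its log2 fold change was 7.85 ± 0.71 (edgeR adjusted p = 1.4e-06) and 9.53 without epididymis replicate 3 (edgeR adjusted p = 3.0e-08). SPAM1 lies within the span of a long non-coding RNA gene, LOC106506801 (23574303 to 23611527), so its reads may include that transcript.

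IZUMO3, which in mice serves in the shaping of the acrosome (chromosome 1, 198357091 to 198360043), had 8.50, 7.98, 10.04, 17.9 and 9.77 CPM in testis and 5 reads in all epididymis libraries together. Its log2 fold change was 7.60 ± 0.56 (edgeR adjusted p = 2.7e-07). IZUMO1 (chromosome 6, 54072607 to 54076319) had 4.41, 3.94, 3.47, 3.53 and 4.02 CPM in testis, or 66 to 119 reads a library, and no read in any epididymis library. Against 3 reads over the whole epididymis group it was at least 127-fold higher in testis (edgeR adjusted p = 1.7e-06). Both IZUMO genes were separated completely between the tissues, as were all 10 genes. IZUMO1 was lowest of the 10 in testis also by CPM. No other gene of the RefSeq table overlaps IZUMO1, but RASIP1 lies 192 bases away.

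Per unit of gene length the order in testis ran ACRBP, ACR, ZPBP, ACRV1, SPACA1, SPACA3, ZPBP2, IZUMO3, SPAM1 and IZUMO1. The levels, in CPM per 1000 bases of gene length (RPKM), were 273 ± 13.0 for ACRBP, 203 ± 30.8 for ACR and 125 ± 23.9 for ZPBP (SD, n = 5). Those of ACRV1, SPACA1, SPACA3 and ZPBP2 averaged 121, 102, 85.1 and 68.5 RPKM, and those of IZUMO3, SPAM1 and IZUMO1 11.3, 9.20 and 0.802 RPKM. Among all 30640 rows, ordered by mean testis RPKM, ACRBP stood at place 168, ACR at 256, ZPBP2 at 920, IZUMO3 at 4555, SPAM1 at 5202 and IZUMO1 at 13752. ZPBP and ACRV1 did not differ beyond their spread, with ZPBP above ACRV1 in 2 of 5 libraries, and without testis replicate 4 they changed places. The ranges also overlapped for ACRV1 and SPACA1 (ACRV1 above in 4 of 5), SPACA1 and SPACA3 (5 of 5), SPACA3 and ZPBP2 (5 of 5) and IZUMO3 and SPAM1 (4 of 5). ACRBP over ACR, ACR over ZPBP, ZPBP2 over IZUMO3 and SPAM1 over IZUMO1 were steps without overlap of ranges, of 1.34, 1.63, 6.07 and 11.5 times. The first of these steps was narrow, as ACRBP and ACR were nearly level in testis replicate 4, at 257 and 255 RPKM. The gene length of IZUMO1 in the files, 4829 bases, is longer than its whole span in the RefSeq table, 3713 bases, so its level per length may be too low.

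**Figure D2:**
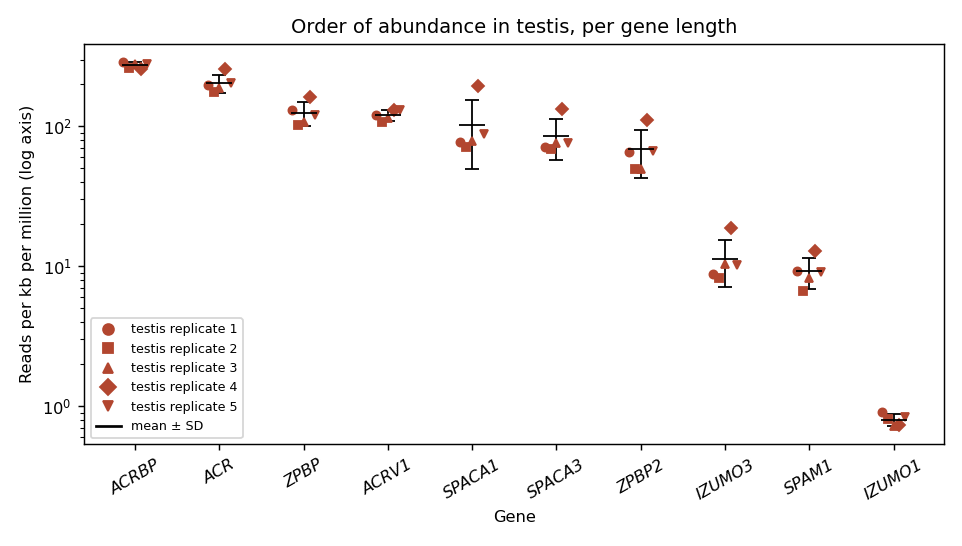
RPKM (log axis) of the 10 genes in the 5 testis libraries, with mean and SD in black. The first 7 genes average 68.5 to 273, IZUMO3 and SPAM1 11.3 and 9.20, and IZUMO1 0.802.

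The 10 genes did not all vary alike among the testis libraries. In testis replicate 4, SPACA1 was 2.50 times the median of the other 4 testis libraries, IZUMO3 1.96, ZPBP2 1.95 and SPACA3 1.82 times. SPAM1, ZPBP, ACR and ACRV1 stood at 1.48, 1.43, 1.33 and 1.13 times, and ACRBP and IZUMO1 at 0.918 and 0.886 times. Of the 10 genes, 8 had their highest testis level in replicate 4, where 40.6% of all genes tested did. At least 1.5 times the median of the others was reached there by 24.7% of all genes tested, and the median ratio over all of them was 1.03. The 8 genes highest in replicate 4 were all lowest in replicate 2, whereas ACRBP was lowest in replicate 4 and IZUMO1 in replicate 3. How many of all genes tested were lowest in replicate 2 was not counted. Of the 15 haploid markers, 11 were highest of the 5 testis libraries in replicate 4 and 3 (PRM1, OAZ3 and GAPDHS) lowest. Examples picked after their values were seen are the transition protein TNP1, with 2396 CPM there against 629 to 766 CPM in the other 4, and PRM1, with 7532 CPM against 7614 to 8202. Of the 10 meiotic markers, 4 were highest in replicate 4 (SYCP1, SYCP3, SMC1B and DMC1) and 4 lowest (STAG3, REC8, MLH3 and TEX11). Summed, they gave 786 CPM in replicate 4, against 1236 to 1393 CPM elsewhere, mostly through STAG3, without which the sum was 322 CPM against 325 to 348 CPM. The part of these library differences in the levels of the 10 genes was not tested.

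**Figure D3:**
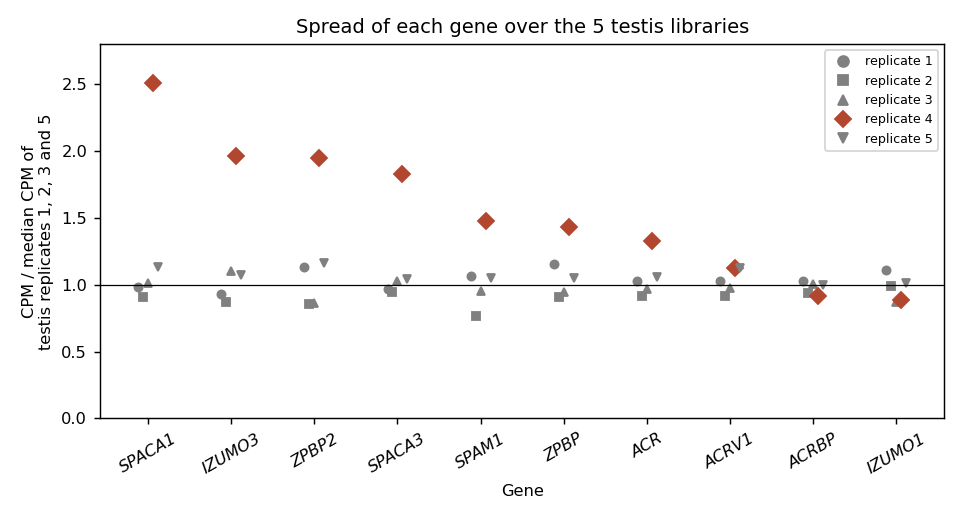
CPM of each gene in the 5 testis libraries divided by the median of replicates 1, 2, 3 and 5, with replicate 4 in red. Replicate 4 runs from 2.50 for SPACA1 down to 0.886 for IZUMO1.

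The level left in the epididymis differed between the genes. Mean epididymal CPM was 5.08% of the testis mean for ACRBP, 3.89% for SPACA1, 3.16% for ZPBP, 1.22% for ZPBP2 and 0.398% to 0.681% for SPACA3, ACR, ACRV1, IZUMO3 and SPAM1. In epididymis replicates 1 to 5, ACRBP stood at 6.72%, 5.83%, 1.11%, 7.42% and 4.31% of its testis mean. SPACA1 stood at 0.514%, 0.996%, 16.1%, 1.40% and 0.445%. The summed haploid markers stood at 0.689%, 0.627%, 3.53%, 1.25% and 0.727% of their testis mean. Outside replicate 3 the largest parts of that sum were ODF2 and GAPDHS, with 70.1 and 86.2 of 254 CPM in replicate 4. ACRBP was thus lowest in replicate 3, whereas SPACA1 and the summed haploid markers were highest there. ACRV1, SPACA3, ZPBP2 and SPAM1 also had their highest epididymal level in replicate 3, and ACR, ZPBP and IZUMO3 in replicates 2, 5 and 5. Without replicate 3, SPACA1 averaged 0.831 ± 0.445 CPM in epididymis (SD, n = 4), 119-fold below its testis mean, while ACRBP averaged 68.1 ± 15.0 CPM.

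**Figure D4:**
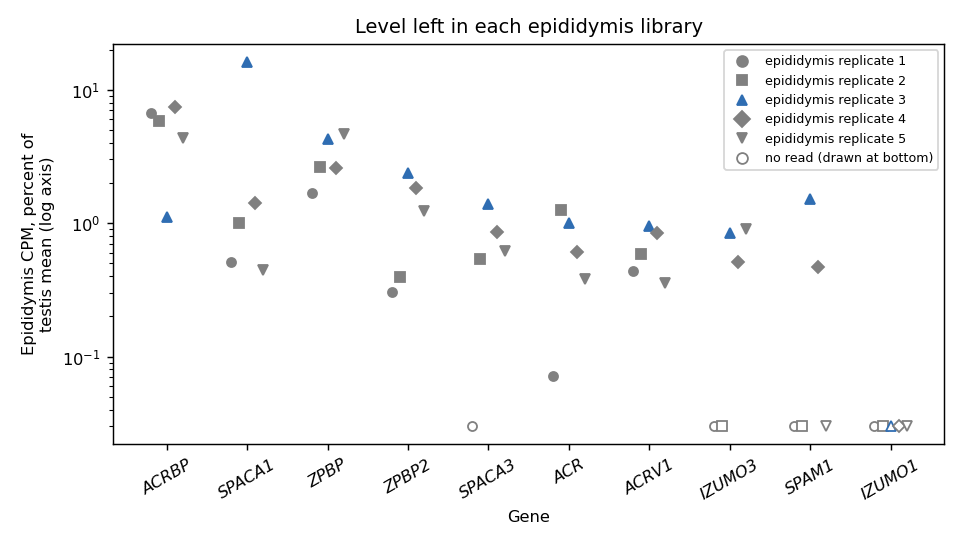
Epididymal CPM of each gene in each library as a percent of its testis mean (log axis), with replicate 3 in blue and libraries with no read as open markers at the bottom. In replicate 3 SPACA1 reaches 16.1% and ACRBP falls to 1.11%.

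ACRBP took most of the epididymal reads of the group. It made up 44.0% to 58.3% of the summed CPM of the 10 genes in testis. In epididymis it made up 94.5%, 86.2%, 28.0%, 87.3% and 80.4% in replicates 1 to 5. Only replicate 3 was below the testis range. The other 9 genes summed to 4.43, 10.5, 32.2, 12.1 and 11.8 CPM in these 5 libraries. The meiotic markers summed to 55.8, 68.1, 33.6, 55.8 and 45.9 CPM. MLH3 was the largest part of the meiotic sum in each epididymis library. It had 19.74 to 42.99 CPM in epididymis and 39.01 to 51.98 CPM in testis, so this sum does not measure meiotic cells alone. SYCP1, DMC1, HORMAD1 and TEX11 had at most 0.588 CPM in any epididymis library. Chosen after their values were seen, GAPDHS, the glycolytic enzyme of sperm, had 58.8, 41.0, 23.1, 86.2 and 31.5 CPM, and CRISP1, a secreted protein of the epididymal epithelium, had 1978, 1382, 53.2, 2680 and 1755 CPM. Both were lowest in replicate 3 and highest in replicate 4, as ACRBP was. GAPDHS was the only one of the 15 haploid markers not highest in replicate 3. Of the 9 epithelial markers, 5 were lowest in replicate 3 (CRISP1, LTF, EPPIN, DEFB136 and SPINK14) and 2 highest (DEFB128 and PTGDS). DEFB128 had 11667 CPM there against 30.8 to 496 CPM in the other 4. Of the 5 lowest in replicate 3, CRISP1 alone was highest in replicate 4. LTF, EPPIN, DEFB136 and SPINK14 were highest in replicate 1. Of the 10 meiotic markers, 4 were lowest in replicate 3 and 2 highest. The part of germ cells and of duct cells in the epididymal ACRBP reads was not tested.

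**Figure D5:**
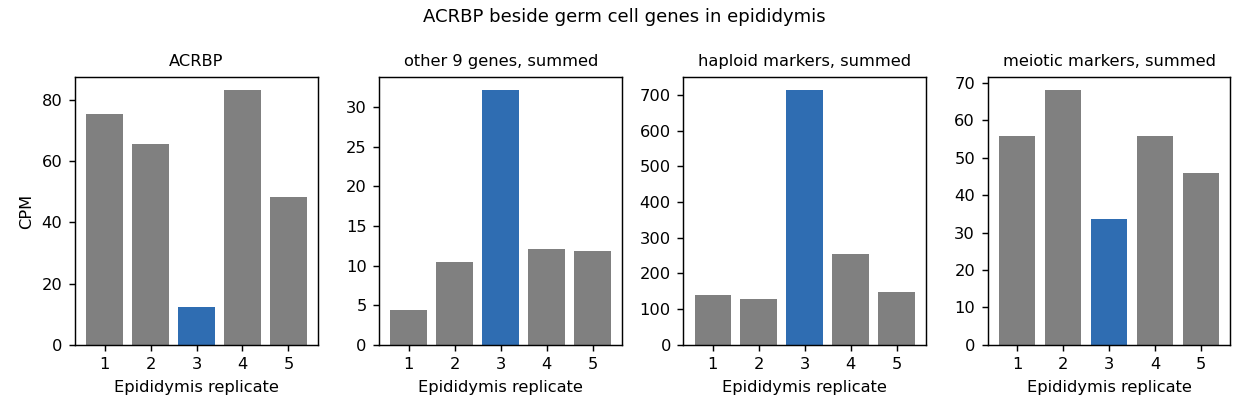
CPM in epididymis replicates 1 to 5 of ACRBP, of the other 9 genes summed, of 15 haploid markers summed and of 10 meiotic markers summed, with replicate 3 in blue. Replicate 3 is lowest for ACRBP (12.5) and the meiotic markers (33.6, of which MLH3 19.7). It is highest for the other 9 genes (32.2) and the haploid markers (715).

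The genes outside the 10 whose profile over the 10 libraries was most like their mean profile were UBE2U, TSGA10IP, RAB26, CCDC40 and SRMS. Likeness was the root mean square difference of log2 CPM after centring each gene, which was 0.23 to 0.25 for these 5. Within the group IZUMO3 was nearest to the mean profile (0.33), and ACR (0.90), SPACA1 (0.99) and ACRBP (1.37) were farthest. CCDC40, a protein of the axoneme, had 112 ± 21.4 CPM in testis and 1.76 ± 0.610 CPM in epididymis (SD, n = 5 each).

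Most other genes of the sperm side of fusion were higher in testis as well. Of 9 tested, 8 were higher in testis, against 36.6% of all genes tested, and SPACA6 was higher in epididymis, against 37.8%. Their median log2 fold change was 4.77, against -0.07 over all genes tested. Of the 9, 6 passed the low-count filter through testis alone. IZUMO4, of the IZUMO family, had 750 ± 104 CPM in testis and 27.8 ± 9.59 CPM in epididymis (log2 4.77 ± 0.28, edgeR adjusted p = 6.2e-08). LLCFC1, known in mice as the fusion factor SOF1, had 277 ± 87.8 CPM in testis and 3.23 ± 4.40 CPM in epididymis (log2 6.46 ± 0.85, edgeR adjusted p = 2.7e-05). Without epididymis replicate 3 the log2 fold changes were 7.72 for LLCFC1 and, against 7.78 with all libraries, 8.50 for DCST2. DCST1 and DCST2, membrane proteins required for fertilisation in mice, had 67.6 ± 9.56 and 78.5 ± 14.9 CPM in testis and 1.05 ± 0.454 and 0.354 ± 0.334 CPM in epididymis. SPACA6, a sperm protein needed for fusion in mice, had 5.39 ± 1.47 CPM in testis and 11.15 ± 4.0 CPM in epididymis (log2 -1.04 ± 0.32, edgeR adjusted p = 0.0109). That call was lost where replicate 4 alone stood for testis (log2 -1.63, edgeR adjusted p = 0.0998).

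Within the IZUMO family the mean testis level per length was 369 RPKM for IZUMO4, 11.3 for IZUMO3, 10.8 for IZUMO2 and 0.802 for IZUMO1. Of the egg-side genes with a row, IZUMO1R, the egg receptor of IZUMO1 also called JUNO, had no read in testis and 5 in epididymis, too few to test. The zona protein genes ZP3 and ZP4 had 6 and 27 reads in testis and 5 and 0 in epididymis. ZP2 had 0.496 ± 0.0762 CPM in testis and 2.86 ± 0.856 CPM in epididymis (log2 -2.49 ± 0.31, edgeR adjusted p = 1.7e-05), which did not pass where replicate 4 alone stood for testis (log2 -2.45, edgeR adjusted p = 0.0515). CD9, a membrane protein that eggs need for fusion and that many cells express, had 7.72 ± 1.87 CPM in testis and 258 ± 78.3 CPM in epididymis (log2 -5.05 ± 0.28, edgeR adjusted p = 4.7e-08).

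All 13 tested genes of the list of other acrosomal content and membrane proteins were higher in testis, against 36.6% of all genes tested. Their median log2 fold change was 7.53, and 7 of them had passed the filter through testis alone. CRISP2, a cysteine-rich protein of the acrosome and tail, had 1214 ± 650 CPM in testis and 18.6 ± 28.4 CPM in epididymis (log2 6.08 ± 0.98, edgeR adjusted p = 0.000139), and a log2 fold change of 7.66 without epididymis replicate 3. Its level in testis replicate 4 was 2.56 times the median of the other 4. SPACA4, a sperm membrane protein, had 178 ± 22.2 CPM in testis and 0.917 ± 0.497 CPM in epididymis. PRSS37, a protease-like protein, had 438 ± 93.2 and 1.59 ± 2.0 CPM in testis and epididymis, and PCSK4, the proprotein convertase of sperm, 548 ± 26.3 and 4.70 ± 1.40 CPM. The log2 fold change of PRSS37 was 8.13, and 9.28 without epididymis replicate 3. PCSK4 stood at 1.00 times and PRSS37 at 0.70 times the median of the others in testis replicate 4.

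Genes of acrosome formation and the perinuclear theca, the sheath that joins acrosome and nucleus, were mostly higher in testis. Of 26 tested, 21 were higher in testis, 3 higher in epididymis and 2 not called, with a median log2 fold change of 6.73. Over all genes tested, 36.6% were higher in testis and 37.8% higher in epididymis. Of the 26, 13 passed the filter through testis alone. The actin-related genes ACTRT2, ACTL9 and ACTL7A had 581 ± 45.8, 543 ± 37.1 and 510 ± 48.0 CPM in testis and 1.86 ± 1.82, 2.62 ± 3.53 and 1.80 ± 1.83 CPM in epididymis. FAM71F2 had 418 ± 58.1 CPM in testis and 2.91 ± 3.94 CPM in epididymis. Leaving out epididymis replicate 3 moved the log2 fold changes to 9.06 against 8.32 (ACTRT2), 9.01 against 7.73 (ACTL9), 8.99 against 8.19 (ACTL7A) and 8.50 against 7.21 (FAM71F2). The 3 genes higher in epididymis serve membrane traffic in many cells. GOPC, a Golgi protein without which mice form no acrosome, had 21.1 ± 6.11 CPM in testis and 40.4 ± 11.3 CPM in epididymis (log2 -0.91 ± 0.23, edgeR adjusted p = 0.00375). VPS54 had 12.8 ± 5.05 and 27.0 ± 9.61 CPM in testis and epididymis, and SYPL1 41.2 ± 7.14 and 135 ± 44.2 CPM. All 3 calls were lost where replicate 4 alone stood for testis, with edgeR adjusted p-values of 0.115 to 0.756 and log2 fold changes of -0.24 for GOPC, -0.23 for VPS54 and -1.28 for SYPL1.

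The genes of acrosome exocytosis, the membrane fusion machinery that sperm share with neurons and gland cells, moved in both directions. Of 19 tested, 5 were higher in testis, 6 higher in epididymis and 8 not called, with a median log2 fold change of -0.10. That is near what all genes tested gave, of which 36.6% were higher in testis and 37.8% higher in epididymis, with a median of -0.07. Of the 19, 3 passed the filter through testis alone. CPLX1, a complexin that clamps vesicle fusion, had 7.86 ± 0.773 CPM in testis and 0.353 ± 0.498 CPM in epididymis (log2 4.46 ± 0.68, edgeR adjusted p = 8.2e-05), and a log2 fold change of 5.83 without epididymis replicate 3. STX2, a syntaxin, had 13.9 ± 4.24 and 4.85 ± 1.61 CPM in testis and epididymis, and SYT6, a synaptotagmin, 1.77 ± 0.652 and 0.181 ± 0.245 CPM. PLCD4, a phospholipase of the acrosome reaction in mice, had 64.7 ± 7.82 and 15.3 ± 24.7 CPM (log2 2.13 ± 0.76, edgeR adjusted p = 0.0241). Its log2 fold change was 3.90 without epididymis replicate 3 (edgeR adjusted p = 1.8e-08) and 3.31 with the boar as a block (edgeR adjusted p = 0.0013). Its call was lost at log2 1.85 to 2.25 without epididymis replicate 4 or 5 (edgeR adjusted p = 0.0502 and 0.0547), without the filter (0.0512) and where replicate 4 alone stood for testis (0.257). SYT6 had a log2 fold change of 3.25, of 4.40 without epididymis replicate 3 and of 1.89 with testis replicate 4 alone, where its call was lost (edgeR adjusted p = 0.404). NAPA, a recycling factor of fusion complexes, had 246 ± 59.6 and 154 ± 43.5 CPM (log2 0.69 ± 0.27, edgeR adjusted p = 0.035). Leaving out testis replicate 2 or 5, or epididymis replicate 3, 4 or 5, ended the call (edgeR adjusted p = 0.0560 to 0.0869). CACNA1H, a calcium channel subunit, and VAMP2, a vesicle protein, were higher in epididymis, with 82.3 ± 13.7 and 12.9 ± 0.599 CPM in testis and 167 ± 75.0 and 44.5 ± 8.0 CPM in epididymis. With testis replicate 4 alone the log2 fold change of CACNA1H was -0.96 against -1.01, and its call was lost (edgeR adjusted p = 0.252). The other 4 genes higher in epididymis were RAB27A, a small GTPase of secretion (log2 -5.08 ± 0.39), the syntaxin STX1A (-2.62 ± 0.36), the calcium release channel ITPR1 (-2.39 ± 0.39) and the small GTPase RAB3A (-1.89 ± 0.26). Their edgeR adjusted p-values were 3.9e-07, 3.5e-05, 0.000164 and 3.9e-05.

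Other hyaluronidase and lysozyme-like genes are relatives of SPAM1 and SPACA3. HYAL1 and HYAL2, the widely expressed hyaluronidases, had 11.5 ± 2.65 and 77.8 ± 18.7 CPM in testis and 31.0 ± 6.46 and 197 ± 28.3 CPM in epididymis (log2 -1.39 ± 0.23 and -1.32 ± 0.19, edgeR adjusted p = 0.000164 and 4.7e-05). HYAL4, which lies 24640 bases from SPAM1, had 1.44 ± 0.192 CPM in testis and 0.0390 ± 0.0391 CPM in epididymis (log2 4.98 ± 0.54, edgeR adjusted p = 4.7e-06). The hyaluronan-degrading CEMIP2 had 22.1 ± 1.86 and 8.90 ± 3.94 CPM in testis and epididymis. With testis replicate 4 alone the calls of HYAL2 (log2 -0.73 against -1.32, edgeR adjusted p = 0.138) and CEMIP2 (1.46 against 1.35, edgeR adjusted p = 0.0697) were lost. CEMIP was not called (13.6 ± 2.52 against 9.95 ± 21.3 CPM, edgeR adjusted p = 0.714), but it was called higher in testis without epididymis replicate 3 (log2 4.96, edgeR adjusted p = 2.6e-07) and with the boar as a block (log2 3.99, edgeR adjusted p = 0.0138). Of 5 hyaluronidase genes tested, 2 were thus higher in each tissue, near the 36.6% and 37.8% of all genes tested, with a median log2 fold change of 0.52. Of the 5, 2 passed the filter through testis alone, HYAL4 among them. The lysozyme-like genes LYZL4, LYZL6 and SPACA5 had 53.4 ± 9.33, 30.8 ± 3.27 and 12.4 ± 7.63 CPM in testis and 0.120 ± 0.106, 0.170 ± 0.219 and 0.0476 ± 0.0681 CPM in epididymis. All 3 were called higher in testis, against 36.6% of all genes tested, and had passed the filter through testis alone. Their log2 fold changes were 8.74, 7.53 and 7.79, with 8.56 for LYZL6 without epididymis replicate 4 and 8.64 for SPACA5 without epididymis replicate 5. The rows of LYZ, the secreted lysozyme, and of LALBA held no read in any library.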

How the data were processed

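Poly(A) RNA was made into cDNA with a SMARTer kit and amplified by PCR, per the labels' protocols. Reads were handled with cutadapt 3.0, STAR and featureCounts of Subread on the build Sscrofa11.1, per the submitters' processing notes. The sources used here name no annotation release, strand setting or rule for multi-mapping reads. The authors deposited raw counts of reads per gene with gene lengths, without normalization. No reads carry molecular identifiers, so floors cover counting error only. Library pairs were not identical (0 pairs; lowest chi-square per gene within a tissue 9.52), and each counted as 1 replicate. The 2 long-read samples were not analysed here.

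CPM divides a count by the library total and multiplies by 1000000, and RPKM is CPM per 1000 bases of the length in the files. Tissues were compared over all genes with R 4.3.3 and edgeR 4.0.16 (filterByExpr, which asked for about 0.499 CPM in 5 libraries, TMM, robust quasi-likelihood test, Benjamini-Hochberg), with tissue as the only term and positive log2 values higher in testis. Approximate SEs are the unshrunk log2 fold change over the root of F. The script was tested on simulated data. Exact tests used log2(CPM + 0.1). Alternatives included DESeq2 1.42.0, other scalings, no filter, the boar as a block and libraries left out. Same-numbered libraries are paired by the animal in the headers, although their deviations from the tissue means correlated at 0.01 to 0.09 only. Coordinates and neighbours come from a RefSeq table of Sscrofa11.1, counted from 1, and LLCFC1, VAMP2 and other unnamed rows took their symbols from the supplied gene tables (810 rows). The 10 genes, the 7 gene lists and the markers were chosen with earlier results of these data known. Named from each list are the 4 most abundant genes per length and those called against most of the list. No sequence is shown.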

Additional observations from a re-analysis of the deposited data

Results flagged for a closer look

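In 5 of 19 groups of 5 libraries, 1 library lay farther from the rest than Dixon's 95% critical value of 0.71 for the gap over the range allows, where chance flags about 1 group in 20. Testis replicate 4 was the highest library in 4 of them, with 189 CPM of SPACA1, 112 CPM of SPACA3, 274 CPM of ZPBP2 and 17.9 CPM of IZUMO3. Among all genes tested, 15.2% had this library as high by the same measure. Epididymis replicate 3 was the highest library for SPACA1, with 15.9 CPM.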

How the results depend on the processing

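Over 18 alternatives, each of the 10 genes kept its direction and its call in all 180 values. Their log2 fold changes moved most for SPACA1 (4.36 to 6.89) and SPAM1 (7.53 to 9.53). The order per length in testis kept all 10 places with TPM, without structural, histone and mitochondrial RNA and without testis replicate 1, 2, 3 or 5, and 8 of them without testis replicate 4. Over all genes, 6124 to 6980 were called higher in testis and 6094 to 6883 higher in epididymis with 1 library left out. Where replicate 4 alone stood for testis, a fit that takes its spread from the epididymis libraries, 2145 genes were called higher in epididymis, against 6506, and 6 listed genes, against 14. NAPA changed direction there (log2 -0.030, edgeR adjusted p = 0.966). The cause was not tested. With 1 library left out, 46 to 50 listed genes were called higher in testis and 14 to 15 higher in epididymis. With the boar as a replicate block the 10 genes stayed called, SPACA1 at log2 6.15, and of the other genes named CEMIP alone changed its call. DESeq2 size factors moved the median log2 fold change of all genes from -0.07 to 0.05. Of 593 values of the other named genes, 571 kept direction and call. Depth limits IZUMO1, IZUMO3 and SPAM1 in epididymis, at 0, 5 and 10 reads.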
